A study of Homo sapiens with 4 samples.

Results

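The ZBTB genes encode transcription factors that join a BTB domain, through which they pair and recruit other proteins, to a run of C2H2 zinc fingers that bind DNA. The family was taken as every row of the count table whose symbol is ZBTB followed by a number and optional letters, without pseudogenes, antisense genes and hyphenated names. This gave 41 genes of the 20263 in the table. ZBTB8OS, which lies opposite ZBTB8A and encodes no BTB zinc finger protein, was left out. Of the 41 genes, 39 had enough counts to be tested. The family was chosen by the measured rise of ZBTB38 in these same libraries, known from earlier results. Its values are therefore given as a description with no test, and counts over the family in the same comparison support nothing by themselves.

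Cells of HCT116, a long-established line from a human colon carcinoma, were treated for 24 h with N_12 or with DMSO, in medium with 10% serum, and RNA was sequenced from 2 libraries in each group. The series title calls N_12 a derivative of nilotinib, a kinase inhibitor. The treatment tag of the N_12 samples reads HJJ_3_5, and the labels used here give no dose. All groups come from the same line, so any difference is between N_12-treated and DMSO-treated HCT116 cells only. The labels do not say whether replicates were separate cultures, and p-values therefore measure only how far these samples spread, possibly for technical reasons. In bulk RNA, fewer cells that express a gene and less RNA per cell cannot be told apart.

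BTB zinc finger proteins mostly repress transcription. The BTB domain binds corepressors such as NCOR1, BCOR and the SIN3 proteins, which bring histone deacetylases, and some members bind the ubiquitin ligase scaffold CUL3. ZBTB33 (Kaiso), ZBTB4 and ZBTB38 recognise methylated CpG through their zinc fingers and can silence methylated promoters. In intestinal cells Kaiso is known for binding the catenin CTNND1 and for its links to Wnt target genes.

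The sequences upstream of the transcription start are shown for the 3 methyl-DNA binders, for ZBTB45 (a rise) and for ZBTB44 (a fall), so that the CpG content of genes that moved differently can be compared. Each line holds the 250 bases before the start that the RefSeq table lists (build GRCh38.p14), 5′ to 3′ on the gene's strand, with every CpG in capitals.
ZBTB38, chr3:141323936-141324185, plus strand: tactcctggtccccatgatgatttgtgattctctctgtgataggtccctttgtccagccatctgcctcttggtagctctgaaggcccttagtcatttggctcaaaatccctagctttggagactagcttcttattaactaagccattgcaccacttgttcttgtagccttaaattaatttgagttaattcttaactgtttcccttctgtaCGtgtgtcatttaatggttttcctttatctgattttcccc
ZBTB4, chr17:7484250-7484499, minus strand: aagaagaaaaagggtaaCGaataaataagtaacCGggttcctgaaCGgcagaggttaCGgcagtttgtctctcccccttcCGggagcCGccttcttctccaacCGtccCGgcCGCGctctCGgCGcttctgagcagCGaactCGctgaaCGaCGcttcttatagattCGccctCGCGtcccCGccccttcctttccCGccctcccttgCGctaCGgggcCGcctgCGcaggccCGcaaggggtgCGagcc
ZBTB33, chrX:120250562-120250811, plus strand: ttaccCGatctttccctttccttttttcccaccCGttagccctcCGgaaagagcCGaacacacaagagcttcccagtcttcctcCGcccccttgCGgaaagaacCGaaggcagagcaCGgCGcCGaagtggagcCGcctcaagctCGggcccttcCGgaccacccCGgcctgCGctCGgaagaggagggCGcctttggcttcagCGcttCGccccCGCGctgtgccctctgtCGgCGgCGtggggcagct
ZBTB45, chr19:58538912-58539161, minus strand: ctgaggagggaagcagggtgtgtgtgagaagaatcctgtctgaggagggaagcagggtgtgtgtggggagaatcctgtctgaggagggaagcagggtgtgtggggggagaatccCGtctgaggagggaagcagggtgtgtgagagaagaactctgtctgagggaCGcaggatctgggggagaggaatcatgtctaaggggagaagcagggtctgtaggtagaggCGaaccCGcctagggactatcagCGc
ZBTB44, chr11:130314918-130315167, minus strand: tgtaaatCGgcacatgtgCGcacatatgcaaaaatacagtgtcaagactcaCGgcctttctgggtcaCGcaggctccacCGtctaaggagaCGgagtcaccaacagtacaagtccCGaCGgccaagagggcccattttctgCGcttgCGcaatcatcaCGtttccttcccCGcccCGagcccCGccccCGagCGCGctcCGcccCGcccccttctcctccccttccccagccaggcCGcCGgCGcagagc
The window of ZBTB38 held 1 CpG, against 27 for ZBTB4, 24 for ZBTB33, 5 for ZBTB45 and 22 for ZBTB44. Members that were higher without a call also had many: 28 for ZBTB2, 30 for ZBTB24, 26 for ZBTB49 and 22 for ZBTB7A. The other called falls held 36 (ZBTB21), 21 (ZBTB25) and 33 (ZBTB34). Whether CpG content goes with the direction of change was not tested. Windows were found for 35 of the 41 genes, and not for ZBTB6, ZBTB10, ZBTB16, ZBTB17, ZBTB40 and ZBTB41. Their median was 21 CpG (range 1 to 55), against a median of 11 over all 27305 windows of the table. ZBTB38 thus had the fewest, but its window stands at only the start that RefSeq lists. GENCODE 29 gives ZBTB38 15 coding transcripts with 15 different starts spread over 118176 bases, and the counts do not say which of them was used. Searched on both strands, the Kaiso site TCCTGCNA was in 2 of the 35 windows, those of ZBTB47 and ZBTB7C (5.71%, against 3.68% of all windows). The E-box CACGTG, which contains a CpG, was in 7 of 35 (20%, against 6.49%), those of ZBTB1, ZBTB11, ZBTB21, ZBTB24, ZBTB32, ZBTB37 and ZBTB49. The ATF4-type motif TGATGNAA was in 0 of 35 (against 3.19% of all windows).

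ZBTB38, a methyl-DNA binder whose protein is turned over through the ubiquitin ligase RBBP6, had few counts in DMSO and many more in N_12. It had 63 and 70 counts in DMSO replicates 1 and 2 and 1437 and 918 in N_12 replicates 1 and 2. Scaled to library size these were 2.07 and 2.38 CPM in DMSO and 34.1 and 22.5 CPM in N_12 (CPM, counts scaled to the library total after TMM adjustment). Both N_12 libraries lay far above both DMSO libraries, and the N_12 libraries differed between themselves by 1.51-fold. The group levels were 2.22 ± 0.223 and 28.3 ± 8.20 CPM (mean ± SD, n = 2 each), a 12.7-fold difference with a log2 fold change of 3.67 (SE 0.26). Per kilobase of exon, over all 14243 annotated exon bases, ZBTB38 went from 0.156 to 1.99 CPM per kb, and from rank 38 to rank 33 of the 41 genes. Its longest transcript has only 7683 bases, so its level and rank per kilobase depend on the length used. No exon base of ZBTB38 is shared with another annotated gene on either strand. The nearest listed genes on either side did not show a rise of this size. SLC25A36, a mitochondrial nucleotide carrier gene, had 100.4 and 97.3 CPM in DMSO and 103 and 72.1 CPM in N_12. The Ras GTPase-activating gene RASA2 had 34.9 and 39.2 CPM in DMSO and 41.0 and 29.7 CPM in N_12, with overlapping groups. RNF7, a subunit of cullin ubiquitin ligases, had 50.8 and 43.0 CPM in DMSO and 35.0 and 38.0 CPM in N_12. SPSB4 was sparse, with 10 and 7 counts in DMSO and 23 and 31 in N_12.

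The other methyl-DNA binders, ZBTB4 and ZBTB33, were abundant in both groups and changed little by comparison. ZBTB4 had 85.3 and 84.9 CPM in DMSO and 128 and 121 CPM in N_12. Both N_12 libraries were higher, by a log2 fold change of 0.55 (95% interval 0.25 to 0.85), which did not pass the threshold (adjusted p = 0.0718). ZBTB33 had 45.9 and 49.4 CPM in DMSO and 47.5 and 33.9 CPM in N_12. The groups overlapped, since N_12 replicate 1 lay between the DMSO libraries, and the log2 fold change was -0.23 (95% interval -0.67 to 0.22, adjusted p = 0.531). Per kilobase the order in DMSO was ZBTB4 (13.9 CPM per kb), ZBTB33 (8.97) and ZBTB38 (0.156). In N_12 the order was the same, at 20.4, 7.67 and 1.99 CPM per kb. The longest open reading frames in GENCODE 29 transcripts held 10 matches to the C2H2 pattern in ZBTB38, 6 in ZBTB4 and 3 in ZBTB33, with lengths of 1196, 1013 and 672 residues. Over the family these matches ranged from 2 to 14, the latter in ZBTB40 and ZBTB41.

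**Figure D1:**
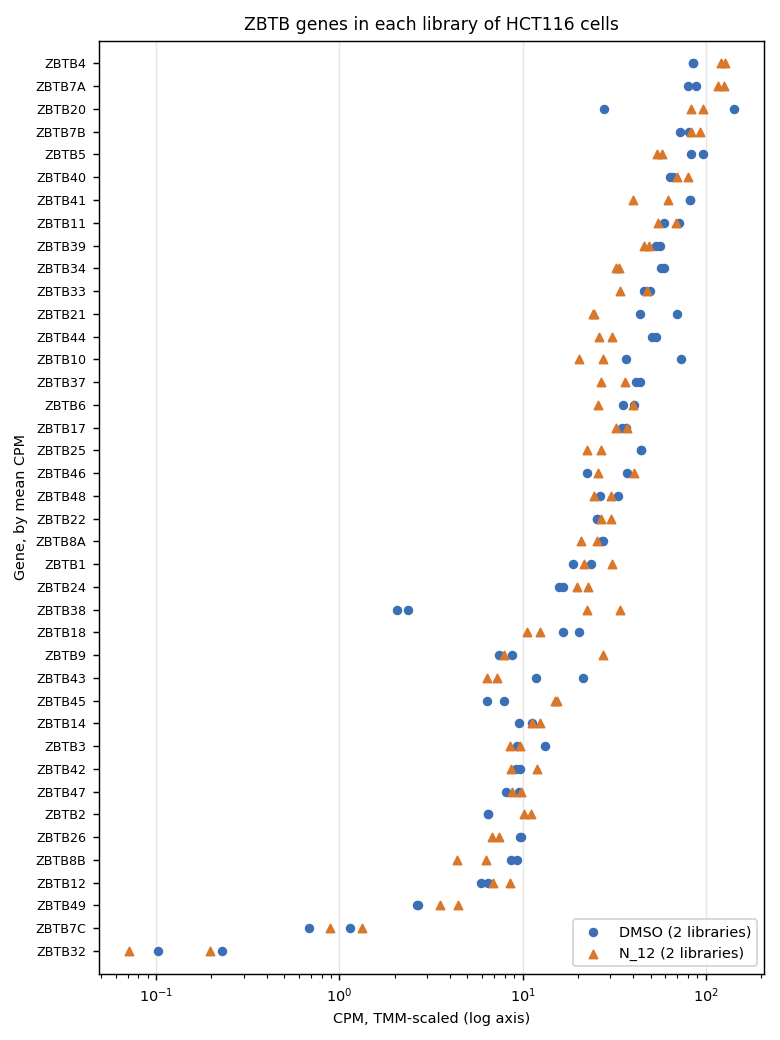
CPM (log axis) of 40 ZBTB genes in the 2 DMSO libraries (circles) and the 2 N_12 libraries (triangles), ordered by mean CPM; ZBTB16, at 0 in every library, is not drawn. ZBTB38 shows the widest gap between the groups (2.07 and 2.38 against 34.1 and 22.5 CPM), while ZBTB20 and ZBTB9 each have a library far from its replicate.

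Over the whole table edgeR's quasi-likelihood test called 2.25% of 14105 genes at an adjusted p of 0.05, 0.822% as higher and 1.43% as lower in N_12. In the ZBTB family 6 of 39 tested genes passed this threshold (15.4%), of which 2 were higher and 4 lower. Without ZBTB38 there were 5 of 38 (13.2%), with ZBTB45 higher and ZBTB21, ZBTB25, ZBTB34 and ZBTB44 lower. The family's median log2 fold change was -0.05, against 0.01 over all tested genes, with 19 members above 0 and 20 below. The median size of the change, without regard to sign, was 0.39 in the family and 0.26 over all tested genes. Related gene classes are given for their counts only. Among numbered ZNF genes, zinc fingers mostly without a BTB domain, 4 of 388 tested were called (1.03%), with a median of 0.11. Among KLHL, KBTBD and BTBD genes, which have the BTB domain without these zinc fingers, it was 1 of 46 (2.17%), with a median of -0.08. Since the family was taken up because of this comparison, the differences between these shares were not tested. The calls rest on few libraries, and the members called changed when either DMSO replicate was dropped. Besides ZBTB38, only ZBTB21 stayed called without DMSO replicate 1, and ZBTB10 was newly called. Without DMSO replicate 2 only ZBTB45 stayed called besides ZBTB38, and ZBTB20 and ZBTB43 were newly called. Dropping either N_12 replicate left edgeR with 0 calls in the family and 0 in the whole table, although 2855 and 2763 genes of the table then had an unadjusted p under 0.05 (16 and 18 in the family). With all 4 libraries, limma-voom called 0.929% of all genes and no member besides ZBTB38, by whose rise the family was chosen. DESeq2 called 14 members, ZBTB38 included, and 8.68% of all genes.

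**Figure D2:**
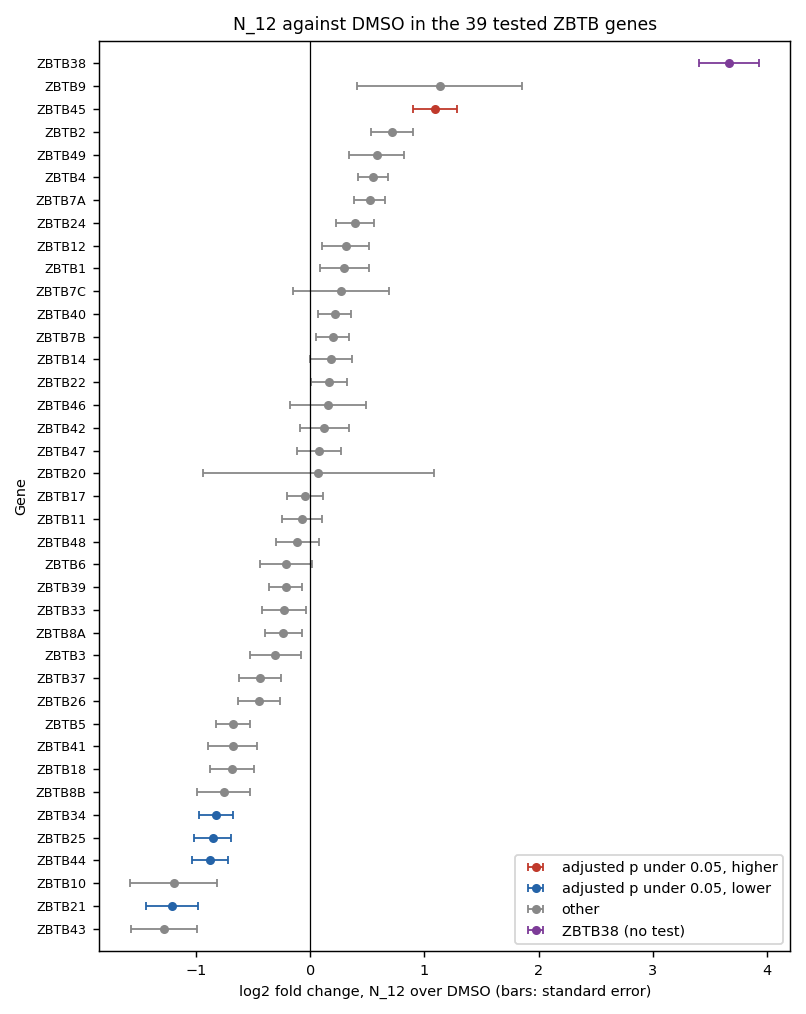
Log2 fold change of N_12 over DMSO for the 39 tested ZBTB genes, with standard errors as bars and colours for genes past the adjusted p of 0.05. ZBTB38 lies at 3.67, ZBTB45 at 1.09, and the 4 called falls between -1.21 and -0.82; the wide bars belong to ZBTB20 and ZBTB9.

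ZBTB45, described as a regulator of glial differentiation, rose. Its level was 6.43 and 7.89 CPM in DMSO and 15 and 15.5 CPM in N_12. The groups did not overlap, and the difference of 2.13-fold (log2 fold change 1.09, SE 0.19, adjusted p = 0.0342) was larger than the spread within either group. Per kilobase it moved from rank 33 to rank 18 in the family. Without DMSO replicate 1 its log2 fold change was 0.95 and it was not called (adjusted p = 0.12).

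ZBTB21, ZBTB44, ZBTB25 and ZBTB34 fell, by 1.77-fold to 2.31-fold. ZBTB21, a repressor that binds its relative ZBTB14, had 44.0 and 69.3 CPM in DMSO and 24.7 and 24.3 CPM in N_12. The DMSO libraries differed by 1.57-fold between themselves, and both stood above both N_12 libraries (log2 fold change -1.21, SE 0.23, adjusted p = 0.0444). Without DMSO replicate 2 its log2 fold change was -0.85 and it was not called (adjusted p = 0.0739). ZBTB44 had 51.2 and 53.2 CPM in DMSO and 26.3 and 30.7 CPM in N_12 (-0.88, SE 0.16, adjusted p = 0.039). ZBTB25, a repressor of NFAT targets in T cells, had 44.4 and 44.3 CPM in DMSO and 26.7 and 22.4 CPM in N_12 (-0.85, SE 0.16, adjusted p = 0.0436). ZBTB34 had 59.1 and 57.3 CPM in DMSO and 33.6 and 32.2 CPM in N_12 (-0.82, SE 0.15, adjusted p = 0.0367). For ZBTB44, ZBTB25 and ZBTB34 the replicates lay close together in both groups. These 3 genes were no longer called without DMSO replicate 1 or without DMSO replicate 2 (adjusted p from 0.0683 to 0.114), with nearly the same log2 fold change. Of the exon bases of ZBTB25, 5.6% lie opposite exons of ZBTB1 and MTHFD1. ZBTB1, a factor of lymphoid development, had 23.6 and 18.9 CPM in DMSO and 30.7 and 21.5 CPM in N_12, with overlapping groups. The folate enzyme gene MTHFD1 had 73.3 and 90.0 CPM in DMSO and 120 and 134 CPM in N_12, both higher. No source used here says whether counting used strand.

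A further 13 members had an unadjusted p under 0.05 without passing the adjusted threshold, 5 of them higher and 8 lower in N_12. Called genes included, 19 of the 39 tested members had an unadjusted p under 0.05 (48.7%), 7 higher and 12 lower, beside 21.8% of all tested genes (11.0% higher, 10.8% lower). ZBTB43 had 21.4 and 11.9 CPM in DMSO and 6.39 and 7.29 CPM in N_12 (log2 fold change -1.28, SE 0.29, adjusted p = 0.0736). ZBTB10, a repressor of SP transcription factor genes, had 36.7 and 73.1 CPM in DMSO and 27.5 and 20.4 CPM in N_12 (-1.20, SE 0.38, adjusted p = 0.177). In both genes the DMSO libraries stood apart, with opposite libraries on top. ZBTB43 was called without DMSO replicate 2 (-1.64, adjusted p = 0.00373) and ZBTB10 without DMSO replicate 1 (-1.61, adjusted p = 0.00211).

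The other lower members of this kind had log2 fold changes from -0.76 to -0.44. ZBTB5, which represses the cell cycle inhibitor gene CDKN1A, was among the most abundant members per kilobase in DMSO. It had 96.1 and 82.8 CPM in DMSO and 57.7 and 54.5 CPM in N_12 (-0.67, SE 0.15, adjusted p = 0.0611). ZBTB41 had 82.4 and 81.8 CPM in DMSO and 62.3 and 40.3 CPM in N_12, with the N_12 libraries 1.55-fold apart (-0.68, adjusted p = 0.136). ZBTB18, a repressor of neuronal development genes, had 20.3 and 16.6 CPM in DMSO and 12.4 and 10.5 CPM in N_12 (-0.68, adjusted p = 0.102). The groups were separate in each of these genes, as in 54.7% of all tested genes. Since they were picked by their p in the same libraries, this adds no support. ZBTB8B (-0.76, adjusted p = 0.123), ZBTB26 (-0.45, adjusted p = 0.213) and ZBTB37 (-0.44, adjusted p = 0.222) completed the set.

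The higher members of this kind were ZBTB2, ZBTB49, ZBTB4, ZBTB7A and ZBTB24. ZBTB7A, a repressor of glycolytic genes such as SLC2A3, PFKP and PKM, had 88.4 and 80.3 CPM in DMSO and 126 and 117 CPM in N_12 (log2 fold change 0.52, SE 0.14, adjusted p = 0.0907). Per kilobase it was among the 3 most abundant members in N_12. ZBTB2, another repressor of CDKN1A, had 6.46 and 6.46 CPM in DMSO and 11.1 and 10.2 CPM in N_12 (0.72, SE 0.18, adjusted p = 0.0888). ZBTB49, an activator of CDKN1A, had 2.66 and 2.69 CPM in DMSO and 4.46 and 3.53 CPM in N_12 (0.58, adjusted p = 0.211). ZBTB24, whose mutation causes an immunodeficiency with loss of DNA methylation at satellite repeats, had 15.8 and 16.6 CPM in DMSO and 22.8 and 19.8 CPM in N_12 (0.39, adjusted p = 0.221). The groups did not overlap in any of these 5 genes, as in 54.7% of all tested genes. Since the 5 were picked by their p in the same libraries, this adds no support. Of the members that act on CDKN1A, ZBTB5 thus lay lower and ZBTB2 and ZBTB49 higher, and ZBTB17 (MIZ1), a partner of MYC, had 36.9 and 35.0 CPM in DMSO and 32.3 and 37.3 CPM in N_12.

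The remaining 20 tested members had log2 fold changes from -0.31 to 1.13. In 6 of them the groups did not overlap: ZBTB7B, ZBTB40, ZBTB22 and ZBTB12 lay higher in N_12, and ZBTB39 and ZBTB8A lower. Over the 39 tested members 25 had groups that did not overlap, 11 with N_12 above and 14 below, while 54.7% of all tested genes were separate in this way. ZBTB7B, the factor of helper T cell commitment that is also made in epithelia, had 81.0 and 72.5 CPM in DMSO and 83.3 and 92.9 CPM in N_12. ZBTB11 had 58.8 and 71.0 CPM in DMSO and 68.6 and 55.0 CPM in N_12, and the telomere-binding ZBTB48 had 33.3 and 26.3 CPM in DMSO and 24.7 and 30.4 CPM in N_12. In both the groups overlapped. ZBTB14, named above as a partner of ZBTB21, had 11.3 and 9.56 CPM in DMSO and 12.4 and 11.3 CPM in N_12.

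ZBTB20 and ZBTB9 had the largest ratios between replicates among the tested members. ZBTB20, a repressor of the fetal liver gene AFP, had 852 and 4202 counts in DMSO replicates 1 and 2 and 4075 and 3365 in N_12 replicates 1 and 2, or 27.9, 142.9, 96.7 and 82.5 CPM. Its DMSO libraries were 5.12-fold apart, a ratio reached by 30 of the 11235 tested genes that average 5 CPM or more (0.267%). The log2 fold change was 0.07 (95% interval -3.57 to 3.71), -0.67 without DMSO replicate 1 (adjusted p = 0.163) and 1.68 without DMSO replicate 2 (adjusted p = 0.00163). No direction can be given for this gene. Exons of another annotated gene on the same strand cover 47.7% of the exon bases of ZBTB20.

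ZBTB9 had 227 and 257 counts in DMSO and 1162 and 323 in N_12, or 7.45, 8.74, 27.6 and 7.92 CPM. N_12 replicate 1 stood alone at 3.48-fold above N_12 replicate 2, a ratio reached by 0.454% of those 11235 genes. The log2 fold change of 1.13 (95% interval -1.07 to 3.34) became -0.05 without N_12 replicate 1. The annotation of ZBTB9 overlaps other exons on its strand, so its count is uncertain. ZBTB46, a factor of classical dendritic cells, had 37.2 and 22.4 CPM in DMSO and 40.7 and 25.7 CPM in N_12, with replicate 1 higher in both groups. For the family as a whole the median ratio between replicates was 1.10 in DMSO and 1.17 in N_12, beside 1.11 and 1.14 over those 11235 genes.

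**Figure D3:**
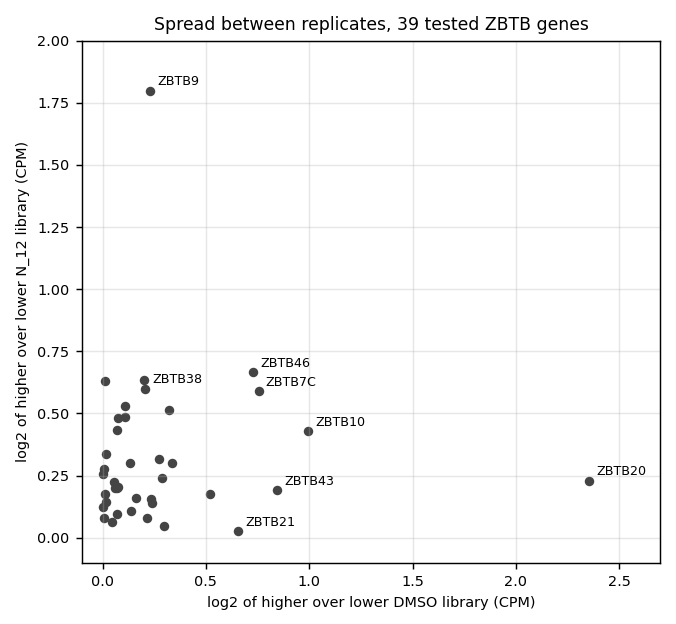
Log2 ratio of the higher to the lower library within DMSO (x axis) and within N_12 (y axis) for the 39 tested ZBTB genes. ZBTB20 stands alone on the DMSO axis (5.12-fold) and ZBTB9 on the N_12 axis (3.48-fold); the family's medians are 1.10-fold and 1.17-fold.

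Levels within the family, compared as CPM per kilobase of exon, spanned a wide range. In DMSO the highest were ZBTB5 (19.3 CPM per kb), ZBTB7B (17.8), ZBTB7A (14.7) and ZBTB4 (13.9). The libraries of ZBTB5 (20.8 and 17.9) and ZBTB7B (18.8 and 16.9) overlapped, so their order is not settled. Below them ZBTB41, ZBTB22, ZBTB6, ZBTB33, ZBTB39, ZBTB34, ZBTB11 and ZBTB17 lay close together, from 9.59 to 8.48 CPM per kb. In N_12 the first places went to ZBTB7A (21.1), ZBTB7B (20.5) and ZBTB4 (20.4), whose libraries overlapped, followed by ZBTB5 (12.1). At the lower end ZBTB7C had 35 and 20 counts in DMSO and 56 and 36 in N_12. ZBTB32, a gene of activated lymphocytes, had 7 and 3 counts in DMSO and 3 and 8 in N_12 and was not tested. ZBTB16 (PLZF), a factor of myeloid and germ cells, was at 0 counts in all 4 libraries, which allows a level of up to 0.102 CPM in the shallowest and 0.0712 CPM in the deepest (3 counts, counting error only). ZBTB8A and ZBTB8B share 25.2% and 11.5% of their exon bases with ENSG00000254553, which had 10 counts in DMSO replicate 1 and 0 elsewhere. The summed level of the family was 1334 and 1458 CPM in DMSO and 1377 and 1235 CPM in N_12, so the groups overlapped.

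Among the tested members, those with GC-rich transcripts tended to have positive log2 fold changes. Of 15 members whose longest GENCODE 29 transcript has at least 50% GC, 12 lay above 0, with a median log2 fold change of 0.20. Of the 24 members under 50% GC, 17 lay below 0, with a median of -0.34. Over all tested genes with a known transcript, 50.9% of those with at least 50% GC lay above 0, and 51.1% of those under it. All 4 called falls, and ZBTB38, are in the second class, and ZBTB45 has the highest GC content of the family (65.4%). Across the 39 members, which share the same libraries, Pearson's r between GC content and log2 fold change was 0.29 and Spearman's rho was 0.47. Without ZBTB38 Pearson's r was 0.53. Across all 14089 tested genes with a known transcript the same r was 0.01. Log2 transcript length gave a Spearman's rho of -0.48 in the family and 0.12 over all genes. These are descriptions across genes, which are not independent replicates. GC content and length were then corrected for in each library, an alternative added after the data were seen. The 5 called members besides ZBTB38 stayed called, and ZBTB5 and ZBTB41 joined them as lower. In this setting 6.2% of all tested genes were called, against 2.25% in the main fit. ZBTB38 then had a log2 fold change of 3.59 and ZBTB45 of 1.06.

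**Figure D4:**
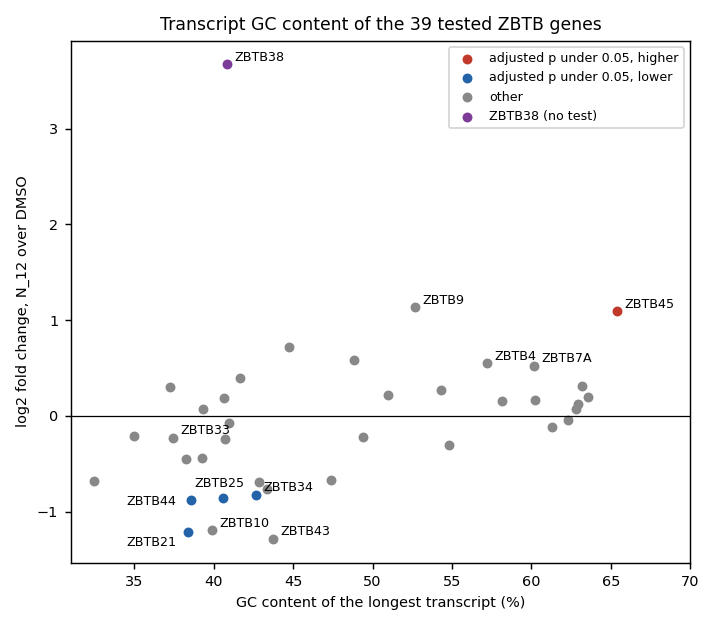
GC content of the longest transcript (x axis) against log2 fold change of N_12 over DMSO (y axis) for the 39 tested ZBTB genes. The 4 called falls lie under 50% GC and ZBTB45 lies at 65.4%, while ZBTB38, at 40.9% GC, stands apart at 3.67.

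BTB zinc finger genes named outside the ZBTB series had no call among 8 tested (0%, against 2.25% of all tested genes). Of these 8, 3 had an unadjusted p under 0.05 in edgeR (37.5%, against 21.8%), limma-voom called 0 and DESeq2 2. Their median was -0.16. HIC2, a relative of the tumour suppressor HIC1, had 35.8 and 28.1 CPM in DMSO and 21.6 and 13.9 CPM in N_12 (log2 fold change -0.85, adjusted p = 0.114). BCL6, a repressor of germinal centre B cells, had 96.5 and 100.6 CPM in DMSO and 71.8 and 74.1 CPM in N_12 (-0.43, adjusted p = 0.124). Both N_12 libraries lay lower in each.

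Other proteins that read or write CpG methylation were tested in full, 16 of 16, and edgeR called 0 of them. An unadjusted p under 0.05 was found for 1 gene, limma-voom called 0 and DESeq2 1. Their median log2 fold change was 0.08, with 13 above 0 and 3 below. DNMT1, the maintenance methyltransferase, had 164 and 155 CPM in DMSO and 226 and 244 CPM in N_12 (0.56, 95% interval 0.26 to 0.86, adjusted p = 0.0677). CpG methylation itself was not analysed here.

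Of 17 corepressors and partners edgeR called 1, as lower (5.88%, against 2.25% of all tested genes). This was MYC, known from earlier results to differ, so the count supports nothing by itself. MYC, which binds ZBTB17 to repress its targets, had 18 and 13.6 CPM in DMSO and 7.95 and 6.38 CPM in N_12 (-1.14, SE 0.22, adjusted p = 0.0441). Dropping DMSO replicate 1 left it at -0.92 and uncalled (adjusted p = 0.132). The list's median was 0.07. RBBP6, the ligase that acts on ZBTB38, had 49.3 and 68.4 CPM in DMSO and 83.0 and 75.0 CPM in N_12 (0.42, adjusted p = 0.233). USP9X, a deubiquitinase of ZBTB38, had 115 and 150 CPM in DMSO and 161 and 164 CPM in N_12 (0.29, adjusted p = 0.327). The kinase HIPK2, a partner of ZBTB4, had a log2 fold change of 0.43 (adjusted p = 0.112), and CTNND1, the catenin bound by ZBTB33, of -0.0036 (adjusted p = 0.992). HDAC3, a histone deacetylase, had 148 and 138 CPM in DMSO and 102 and 109 CPM in N_12 (-0.44, adjusted p = 0.117).

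Of 15 genes known as targets of single members 13 were tested and 2 were called (15.4%, against 2.25% of all tested genes). Their median log2 fold change was -0.03. Both called genes were already known to differ, so this count supports nothing by itself. SLC2A3, a glucose transporter gene repressed by ZBTB7A, had 354 and 352 CPM in DMSO and 120 and 110 CPM in N_12 (-1.62, SE 0.13, adjusted p = 0.00201). The other ZBTB7A targets had smaller differences, at -0.28 for PFKP (adjusted p = 0.254) and -0.17 for PKM (adjusted p = 0.495). ASNS, the asparagine synthetase gene that depends on ZBTB1 in some leukaemia cells, had 194 and 186 CPM in DMSO and 359 and 324 CPM in N_12 (0.85, SE 0.13, adjusted p = 0.0231). MCM10, a replication gene repressed by ZBTB38, had 10.6 and 10.1 CPM in DMSO and 17.6 and 20.5 CPM in N_12 (0.88, SE 0.18), which narrowly missed the threshold (adjusted p = 0.0502). Both N_12 libraries lay above both DMSO libraries for MCM10, as they did for 27.9% of all tested genes. Within N_12, ZBTB38 was higher in replicate 1 and MCM10 in replicate 2. A link between these 2 genes was not tested. For the ZBTB10 targets SP1, SP3 and SP4 the values were 0.05, -0.02 and -0.38, and CDKN1A had 0.06. MMP7, a Kaiso target, had at most 0.197 CPM and was not tested, and AFP was at 0 counts throughout. SLC2A3, MYC and ASNS were known from earlier results to differ.

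By the rule set for similar patterns, the genes whose log2 CPM followed ZBTB38 most closely over the 4 libraries were ZBED3, TCF7, CHCHD10, SLC25A44 and MRPL15 (Pearson's r from 0.9998 to 0.9999). With 4 libraries in 2 groups such values are common, and 198 of 11230 genes exceeded 0.99. ZBED3 had 8.95 and 9.39 CPM in DMSO and 18.5 and 16.8 CPM in N_12, a much smaller difference than that of ZBTB38.

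Total counts ranged from 29769568 to 41717938 per library, with the N_12 libraries deeper. The markers of the epithelial line (EPCAM, KRT8, KRT18, KRT19 and CDH1) summed to 4060 to 4594 CPM in DMSO and 3328 to 3673 CPM in N_12. Of the leukocyte markers PTPRC and CD3E were at 0 in every library and CD68 held most of the sum of 35.0 to 49.1 CPM. Of the fibroblast markers COL1A2, DCN and LUM were at 0, and COL1A1 held most of the sum of 55.5 to 64.9 CPM. The endothelial markers summed to at most 2.35 CPM. The part of any of these markers in the ZBTB results was not tested.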

How the data were processed

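The authors deposited whole-number counts per gene for 4 libraries, with no normalization, keyed by human Ensembl gene identifiers. Per the labels' protocols, 1.4 ug of total RNA went into each library of a kit for mRNA. The submitters' processing notes name only mouse genome builds, which does not match these identifiers. The sources used here name no aligner or counting tool. Symbols were found for 20148 of 20263 identifiers, and 3554 genes had 0 counts throughout. Exon lengths and overlaps came from GENCODE release 29.

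The analysis used edgeR 4.0.16 under R 4.3.3, with TMM scaling (factors 0.98 to 1.02), edgeR's expression filter (14105 genes), and a robust quasi-likelihood test of N_12 against DMSO, fitted on the whole table, two-sided, with Benjamini-Hochberg adjustment and a threshold of 0.05. Intervals are 95%. Members, lists and the rule for named genes were chosen with earlier results of these data known. The rule gave fold changes for ZBTB4, ZBTB33, ZBTB38, every ZBTB gene with an unadjusted p under 0.05 and called genes of 4 further lists. ZBTB9, ZBTB20, ZBTB46 and examples from the lists were named after their values were seen. A few genes of the lists and of the overlap check are not reported here.

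C2H2 matches require 2 to 4 residues between the cysteines, 12 up to the first histidine and 3 to 5 to the last histidine or cysteine. On simulated data of this comparison (13989 genes) 3 of 50 genes changed 1.5-fold, 23 of 50 changed 2-fold and 48 of 48 changed 4-fold were called, as were 8 of 13792 unchanged genes. Replicate libraries differed by more than counting noise, so none was treated as a copy of another (chi-square over its degrees of freedom 36.5 in DMSO, 57.2 in N_12). Alternatives used other scalings and filters, a replicate term, non-robust dispersions, limma-voom (limma 3.58.1), DESeq2 1.42.0, leaving out each library, and a GC and length correction.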

Additional observations from a re-analysis of the deposited data

How the results depend on the processing

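Calls over the whole table numbered 317, of which 116 were higher. They became 963 with a replicate block, 131 with non-robust dispersions, 131 with limma-voom, 1225 with DESeq2 and 870 with GC and length correction. In the ZBTB family the 6 calls became 11 with the replicate block, 1 with non-robust dispersions, 1 with limma-voom and 14 with DESeq2. These counts include ZBTB38, by whose rise the family was chosen, so its presence in them supports nothing. They became 4 when libraries were scaled by totals alone, where ZBTB21 (adjusted p = 0.0524) and ZBTB25 (0.0509) were lost. Across genes, same-numbered libraries did not deviate together from their group means (correlation -0.09). With 2 libraries a group this cannot show whether the samples were paired, and the labels do not say. The block is given only here. BTB zinc finger genes outside the ZBTB series, with 0 calls, had 1 with the replicate block, 2 with DESeq2 and 1 with GC and length correction. The methyl-CpG list, with 0 calls, had 1 with DESeq2 and 1 with GC and length correction. The 1 partner call became 0 with non-robust dispersions and with limma-voom and 4 with DESeq2, and the 2 target calls became 1 with non-robust dispersions and 3 with totals alone, no low-count filter, a filter of 1 CPM in 2 libraries, the replicate block and DESeq2.

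Leaving out each library in turn gave 0 to 451 calls over all genes, 0 to 4 in the ZBTB family, 0 to 1 among partners and 0 to 2 among targets. The lone library of a group is then assumed to vary like the other group. ZBTB38, given only as a description, had log2 fold changes from 3.32 to 3.93 over the 15 settings. ZBTB20 went from -0.67 to 1.68, with -0.08 without N_12 replicate 1. ZBTB46 was -0.16 without DMSO replicate 2 and -0.23 without N_12 replicate 1 but positive (0.45 and 0.56) without the other libraries, and ZBTB9 ranged from -0.0478 to 1.76. The other ZBTB genes given fold changes, and MYC, SLC2A3 and ASNS, kept their sign in all 15 settings. With 2 libraries a group, changes under 2-fold can be missed: on simulated data 3 of 50 genes changed 1.5-fold were called. That simulation gave every gene the same dispersion, which the real fit did not. In the real data ZBTB34, ZBTB25 and ZBTB44 were called at falls of 1.77-fold, 1.81-fold and 1.83-fold.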
